A study of Mus musculus with 4 samples.

Results

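The genes in question encode the CD28 family of T cell receptors for costimulation and their B7 family ligands: Cd28, Ctla4, Icos and Pdcd1 on the receptor side, and Cd80, Cd86, Icosl, Cd274 and Pdcd1lg2 on the ligand side. They make up 9 of the 27095 gene windows in a table of H3K27me3 Cut&Tag counts from mouse alveolar macrophages. The 9 genes were chosen by name, for their shared pathway, and they were selected on a view of earlier results from the same wild type to knockout contrast, so their values in that contrast, and the count of them past the threshold used for all genes, are given as a description and support nothing. H3K27me3 is the repressive histone mark written by the Polycomb complex PRC2, of which Suz12 is a required subunit, and Cut&Tag maps it by tethering a transposase to the antibody.

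All 4 libraries came from C57BL/6-Ly5.1 mice that were lethally irradiated and given a mixed graft. In the wild-type group the graft was 90% wild-type Ly5.2 and 10% wild-type Ly5.1 marrow, and in the other group 90% Suz12 cKO (conditional knockout) Ly5.2 and 10% wild-type Ly5.1. Each genotype had 2 libraries, described as biological replicates, each from 100000 sorted lung macrophages. The sources used here do not give the driver of the deletion, the age of the animals or whether the sort removed Ly5.1 cells, and the samples may hold wild-type macrophages in both groups. Library totals were 2592297 and 2142175 counts in wild type and 3331138 and 3567282 in cKO. Suz12 itself was near the floor, with 8 and 10 counts in wild type and 11 and 10 in cKO. A gene-wide window of H3K27me3 does not check a deletion.

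T cells are activated through the antigen receptor together with a second signal. CD28 gives that signal when it binds CD80 or CD86 on an antigen-presenting cell, CTLA-4 binds the same ligands and restrains the cell, and ICOS binds ICOS ligand to support helper T cell responses. PD-1, the product of Pdcd1, is an inhibitory receptor for PD-L1 (Cd274) and PD-L2 (Pdcd1lg2). Macrophages are a site of the ligands, whereas the receptors are mainly T cell genes. Polycomb marks commonly lie over genes of other lineages, and in mammals they concentrate at CpG-rich sequence.

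The labelled cell type was compared with marker genes at the chromatin level. Per kb of window, 15 alveolar macrophage genes had a median of 0.153 CPM (library counts after scaling for depth) in each genotype. The medians in wild type were 0.822 for 12 T cell genes, 0.28 for 7 B cell genes, 1.48 for 6 dendritic cell genes, 1.91 for 6 lung epithelial genes and 2.03 for 5 endothelial genes. Of these 6 lists the mark was thus lowest over the genes of the labelled cell. The T cell list summed to 606 and 556 CPM in wild type and 592 and 572 in cKO, and none of its genes was at 0 in all libraries. Of its 9 tested genes, 0 were called by edgeR's quasi-likelihood test, 0 had an unadjusted p under 0.05 and 0 were called by DESeq2. The dendritic cell list summed to 543 and 502 CPM in wild type and to 602 and 581 in cKO. Of its 4 tested genes 1 gained, where 4.46% of all tested genes gained. This was Zbtb46, a dendritic cell transcription factor (log2 fold change 0.43 ± 0.13, SE, edgeR adjusted p = 0.0209). Other windows cover 22.3% of the Zbtb46 window. Zbtb46 was not called without wild-type library 2 or without either cKO library (adjusted p = 0.209, 0.235 and 0.198), nor with DESeq2 (0.203), thinned counts (0.134), library totals (0.0526) or upper-quartile factors (0.0952). The part of other cells in the values below was not tested.

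The promoters show how different the sequence setting of these genes is. RefSeq (GRCm38.p6, the assembly of mm10) gave promoter sequence, from 250 bases before to 50 bases after the start, for 6 of the 9 genes. These were Ctla4, Pdcd1, Icosl, Cd80, Cd274 and Pdcd1lg2. For Cd80 and Cd274 the start used lies inside the gene span and not at its end. Their promoters are chr16:38458683-38458982 and chr19:29367188-29367487, in genes that begin at 38457430 and 29362107. A set of 3 is printed because they differ in CG content (5, 8 and 26) and in level of the mark, with CG dinucleotides in capitals (each CG reads CG on both strands). The Ctla4 promoter is chr1:60908775-60909074, plus strand. The Pdcd1 promoter is chr1:94052504-94052803, minus strand. The Icosl promoter is chr10:78069118-78069417, plus strand.
Ctla4: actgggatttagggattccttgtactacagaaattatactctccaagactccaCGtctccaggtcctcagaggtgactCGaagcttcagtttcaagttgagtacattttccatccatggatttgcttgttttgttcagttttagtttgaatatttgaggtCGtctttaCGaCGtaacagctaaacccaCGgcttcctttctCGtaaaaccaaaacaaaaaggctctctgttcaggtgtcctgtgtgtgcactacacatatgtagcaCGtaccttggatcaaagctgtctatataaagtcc
Pdcd1: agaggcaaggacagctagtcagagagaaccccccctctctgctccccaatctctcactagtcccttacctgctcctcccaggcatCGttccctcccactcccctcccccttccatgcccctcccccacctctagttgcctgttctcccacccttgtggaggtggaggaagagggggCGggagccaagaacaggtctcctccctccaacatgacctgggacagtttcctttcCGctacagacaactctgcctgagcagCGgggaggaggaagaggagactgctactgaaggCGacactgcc
Icosl: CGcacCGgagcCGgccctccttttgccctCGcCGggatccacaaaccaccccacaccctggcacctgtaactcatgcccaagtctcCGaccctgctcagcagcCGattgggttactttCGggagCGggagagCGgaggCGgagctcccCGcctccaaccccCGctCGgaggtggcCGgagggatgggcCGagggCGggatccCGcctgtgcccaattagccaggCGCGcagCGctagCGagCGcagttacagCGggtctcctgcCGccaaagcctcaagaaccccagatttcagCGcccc

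The Icosl promoter held 26 CG dinucleotides at 68.0% GC, a count that 16.9% of 32851 RefSeq promoters of this length reach. The Cd274 promoter held 15 and the Ctla4 promoter 8, against a median of 7 over all promoters, of which 94.6% hold at least 1. The Pdcd1 promoter held 5 CG despite 60.7% GC, an observed to expected ratio of 0.19, and the Cd80 and Pdcd1lg2 promoters held 3 each (ratios of 0.164 and 0.189). The median ratio over all promoters was 0.384. The order of CG content is not the order of H3K27me3 given next: the 2 genes richest in CG, Icosl and Cd274, were among the 4 least marked, while Pdcd1, poor in CG, was the most marked. This is a description of 6 genes, and the counts come from windows of the whole gene rather than from the promoter.

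Across the 9 genes the receptors carried more H3K27me3 than the ligands, with Cd86 as the ligand nearest to the receptors. In wild type the order of CPM per kb was Pdcd1 (3.88 ± 0.0148), Icos (2.04 ± 0.208), Ctla4 (0.959 ± 0.143), Cd28 (0.798 ± 0.247), Cd86 (0.793 ± 0.0202), Icosl (0.197 ± 0.0415), Cd80 (0.158 ± 0.0514), Pdcd1lg2 (0.136 ± 0.00724) and Cd274 (0.118 ± 0.00273), each as mean and SD over 2 libraries. The Cd28 libraries overlapped those of Ctla4 above it and of Cd86 below it, so these neighbours do not differ beyond their spread, and neither do Icosl and Cd80 or Cd80 and Pdcd1lg2. Among all tested genes the wild-type median was 0.672 CPM per kb. Pdcd1 stood at percentile 91.6, Icos at percentile 81.4 and Cd274 at percentile 10.3. The last place of Cd274 is uncertain, because other windows overlap its own. Per kb of unshared window it stood at 0.182 CPM, with Cd80 at 0.179 and Pdcd1lg2 at 0.136. The value of 0.182 is approximate, since the overlap was taken from reference positions and the deposited Cd274 window is shorter. Its gap to Cd80 is smaller than the SD of Cd80, so no order of these 2 is read from it. In cKO the order changed at 1 place among the receptors: Ctla4 (2.47 ± 0.0473) stood above Icos (2.1 ± 0.0458), with no overlap of their libraries.

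**Figure D1:**
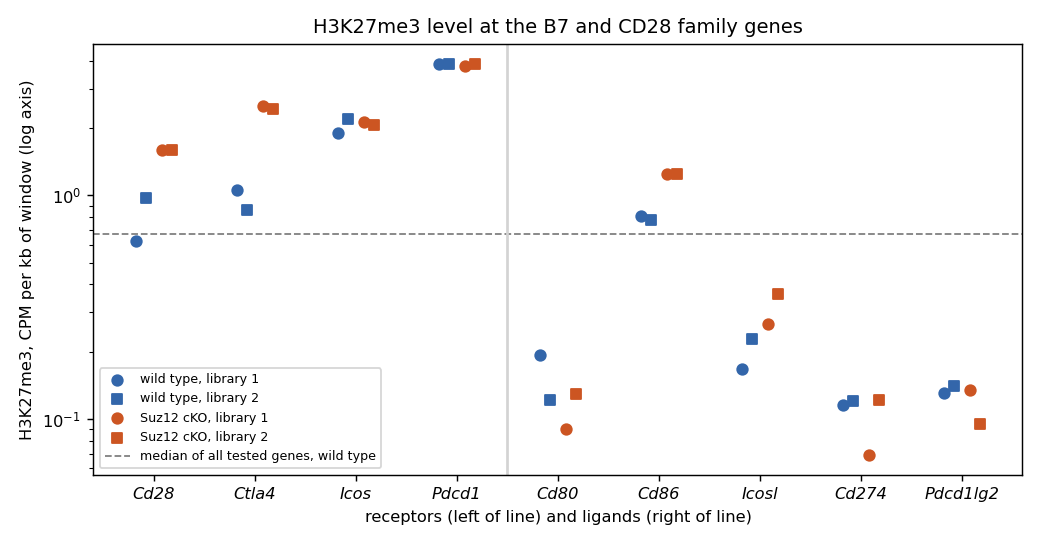
H3K27me3 at each of the 9 genes as CPM per kb of gene window on a log axis, 1 point per library (blue wild type, orange Suz12 cKO), with the wild-type median of all tested genes as a dashed line. Both cKO points lie above both wild-type points at Cd28, Ctla4, Cd86 and Icosl, and Icosl, Cd80, Cd274 and Pdcd1lg2 lie below the dashed line in all libraries.

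Of the 9 genes, 8 passed the filter on low counts, and 3 of these, Cd28, Ctla4 and Cd86, lay past the threshold that defines a called gene in the fit over all genes (edgeR's quasi-likelihood test, adjusted p below 0.05), each higher in cKO. Over all 16752 genes tested, 6.42% were called, 4.46% as gained and 1.96% as lost. Since the genes were chosen with this contrast known, their count is no test of them, and nothing is read from it against these shares. None of the 8 lay past the threshold in the direction of loss (0 at an unadjusted p under 0.05 with edgeR, and 0 by DESeq2). The median log2 fold change was 0.35 for the 8 genes and −0.013 for all tested genes. The wild-type and cKO libraries did not overlap at 4 of the 9 genes, as at 47.6% of all tested genes. CPM are shares of a library, so a change of the whole signal is not visible in them, and in bulk chromatin fewer cells with the mark and less mark per cell cannot be told apart. The balance of calls over all genes depended on the scaling: gains were 69.4% of calls with TMM factors, 55.7% with library totals, 48.8% with upper-quartile factors and 94.2% with housekeeping scaling, under which the median log2 fold change over all genes shifted by 0.26. DESeq2's Wald test, with 377 calls, had 86.2% gains.

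Cd28, the primary costimulatory receptor (chromosome 1, gene at 60746388 to 60773359), had counts of 53 and 70 in wild type and of 173 and 180 in cKO. As CPM these were 20.6 and 32.1 against 52.9 and 52.6. Both cKO libraries were above both wild-type libraries, and the wild-type libraries differed from each other more than the cKO libraries did. The ratio of the cKO to the wild-type mean was 2.0 (log2 fold change 1.02 ± 0.19, SE), from 26.3 ± 8.13 to 52.7 ± 0.232 CPM (SD, n = 2 each). The spread in wild type shows in the estimate, which was 0.72 without wild-type library 1 and 1.37 without wild-type library 2. The ratio of summed counts, scaled to library totals, was 1.97, and its 95% interval (exact binomial) runs from 1.6 to 2.44 and covers counting error only, as do all such intervals below.

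Ctla4, the inhibitory receptor for the same ligands (60909025 to 60915832), lies 136 kb beyond Cd28 and had the highest fold of the 9 genes. Its window held 35 and 24 counts in wild type and 105 and 107 in cKO, or 13.6 and 11.0 CPM against 32.1 and 31.2 CPM. The cKO libraries lay well above the wild-type ones, with no overlap. The ratio of means was 2.58 (log2 fold change 1.35 ± 0.25), rank 162 from the highest among the 16752 genes tested, where Cd28 ranked 357. Per kb, Ctla4 went from percentile 60.3 of tested genes in wild type to percentile 84.4 in cKO.

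Icos, the third receptor of the cluster (60960773 to 61000322, 44.9 kb beyond Ctla4), held 139 and 136 counts in wild type and 198 and 201 in cKO. Scaled to CPM these were 53.9 and 62.3 against 60.5 and 58.7, and the cKO values fell between the wild-type values. The log2 fold change was 0.04 ± 0.15, and its sign turned with library totals (−0.01), upper-quartile factors (−0.04), thinned counts (−0.10) and without wild-type library 1 (−0.06). The ratio of summed counts was 0.996, with a 95% counting interval of 0.852 to 1.17. The deposited Icos window, 28.41 kb long, is shorter than the reference gene span with its flanks, so where in the gene these counts lie is less certain than for Cd28.

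Because the 3 receptor windows sit within 254 kb, their counts can also be compared inside each library, where no scaling between libraries enters. Icos took 61.2% and 59.1% of the counts in the 3 windows in wild type, and 41.6% and 41.2% in cKO. The Wilson 95% intervals were 54.8% to 67.3% and 52.7% to 65.3% in wild type, and 37.3% to 46.1% and 36.9% to 45.6% in cKO. These intervals cover counting error only, and replicate libraries differed by more than that. The genes were chosen with this contrast known, so the shares are a description and no test of genotype. Ctla4 took 15.4% (11.3% to 20.7%) and 10.4% (7.11% to 15.1%) in wild type, and 22.1% (18.6% to 26.0%) and 21.9% (18.5% to 25.8%) in cKO. Cd28 took 23.3% (18.3% to 29.3%) and 30.4% (24.8% to 36.7%) in wild type, and 36.3% (32.1% to 40.8%) and 36.9% (32.7% to 41.3%) in cKO. For Ctla4 the intervals of wild-type library 1, and for Cd28 those of wild-type library 2, overlapped those of the cKO libraries. Relative to Icos, both Cd28 and Ctla4 took more counts in both cKO libraries. A share within a library shows unequal change, and does not show which of the 3 windows stayed as it was.

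**Figure D2:**
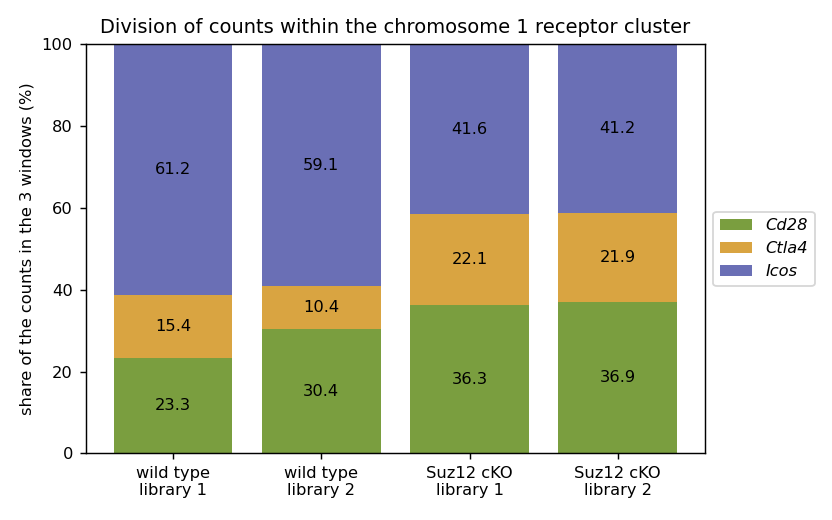
Division of the counts in the Cd28, Ctla4 and Icos windows in each library, as a percentage of the 227, 230, 476 and 488 counts in the 3 windows (left to right). Icos takes 61.2% and 59.1% in wild type and 41.6% and 41.2% in cKO.

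The protein-coding windows around the cluster did not share the difference as a block, though none of those read lies closer than 179 kb. Raph1, which encodes an actin regulator, is the nearest protein-coding gene on the Cd28 side, at 179 kb. Raph1 had 15.1 CPM in each wild-type library and 15.9 and 14.9 in cKO (log2 fold change 0.03 ± 0.28, edgeR adjusted p = 0.978). Other windows cover 16.5% of the Raph1 window. Pard3b, a cell polarity gene that starts 638 kb beyond Icos, had 788 and 813 CPM in wild type and 836 and 822 in cKO (0.05 ± 0.08, adjusted p = 0.807). The Pard3b window is 1009.46 kb long, so its value says little about any 1 place in it. Between these 2 genes the reference placed no other protein-coding window besides the 3 receptors. Farther out, Abi2, which encodes an Abl-interacting adaptor and lies 264 kb from Cd28, rose from 16.3 and 10.5 CPM in wild type to 32.4 and 34.8 in cKO (1.30 ± 0.24, adjusted p = 1.3e-05), and other windows cover 20.4% of its own. Of the 8 flanking windows, 7 were tested, 1 gained, where 4.46% of all tested genes gained, and 0 were lost (0 at an unadjusted p under 0.05, and 0 by DESeq2). Per kb, the wild-type median of the 8 was 0.128 CPM, below each of the 3 receptors, but the 8 ran from 0.0292 to 0.793. The highest was Pard3b (0.793), at nearly the level of Cd28 (0.798).

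**Figure D3:**
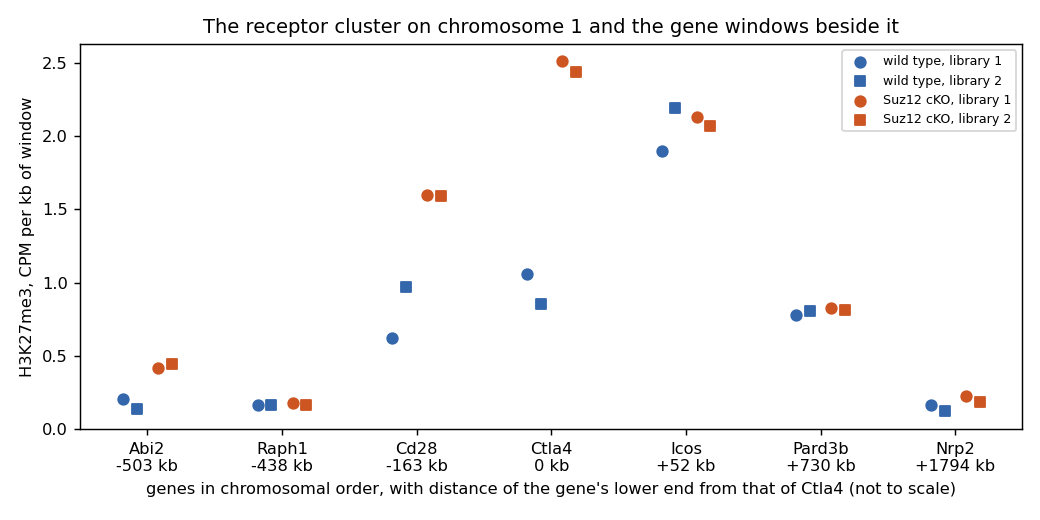
CPM per kb in each library for the 3 receptor windows and the nearest 2 protein-coding windows on each side, in chromosomal order, labelled with the distance of the gene's lower end from that of Ctla4. The gap between the cKO points (orange) and the wild-type points (blue) in CPM per kb is widest at Ctla4 and Cd28, though by fold Abi2 (log2 fold change 1.30) is wider than Cd28 (1.02), while at Icos the cKO points lie between the wild-type points.

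Pdcd1, which encodes PD-1, also lies on chromosome 1 (94038305 to 94052553), 33.0 Mb from Icos. It was the most marked of the 9 genes and had nearly the same level in every library: 202 and 172 counts in wild type and 252 and 270 in cKO, or 78.3 and 78.8 CPM against 77.1 and 78.9. The log2 fold change was −0.01 ± 0.14, and the ratio of summed counts 0.958 (counting interval 0.837 to 1.1). Its neighbour Neu4, a sialidase gene 9.97 kb away, had a wild-type level of 4.61 CPM per kb and a cKO level of 5.44 (log2 fold change 0.24 ± 0.14, adjusted p = 0.36). On the other side the nearest protein-coding window was Fam174a, 1260 kb away, at 0.16 CPM per kb. Of the 8 windows beside Pdcd1, 0 were called by edgeR (0 gained and 1 lost at an unadjusted p under 0.05) and 0 by DESeq2.

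Cd86, a B7 ligand of CD28 and CTLA-4 on chromosome 16 (36568956 to 36666158), had the most counts of the 5 ligands. Its counts were 142 and 116 in wild type and 278 and 291 in cKO, which are 55.1 and 53.1 CPM against 85.0 and 85.0. Replicates were close and the genotypes did not overlap. The ratio of means was 1.57 (log2 fold change 0.65 ± 0.14). Casr, the calcium-sensing receptor gene 6.82 kb away, was at 212 and 196 CPM in wild type and 205 and 219 in cKO (0.05 ± 0.10, adjusted p = 0.841). Of the counts in the Cd86 and Casr windows of a library, Cd86 took 20.6% and 21.3% in wild type and 29.3% and 28.0% in cKO, again without regard to scaling. On the other side, Ildr1 had a log2 fold change of −0.12 ± 0.11 (adjusted p = 0.624). The deposited Cd86 window is 68.21 kb long, shorter than the reference span with its flanks.

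Cd80, the other ligand of CD28 and CTLA-4 (chromosome 16, 38457430 to 38495958), lies 1.79 Mb from Cd86 and carried little mark. Its counts were 17 and 9 in wild type and 10 and 15 in cKO, or 6.59 and 4.12 CPM against 3.06 and 4.38, with the genotypes overlapping. The log2 fold change was −0.53 ± 0.53, and the counting interval of the ratio, 0.366 to 1.19, takes in both a loss and a small gain. By reference positions 12.1% of this window overlaps others. Cd80 and Cd86, which bind the same receptors, therefore differed in level, at 0.158 and 0.793 CPM per kb in wild type. The nearest protein-coding window on each side was also low. Timmdc1, 1.89 kb away, had 0.215 CPM per kb in wild type (log2 fold change −1.22 ± 0.53, adjusted p = 0.178), and Adprh, 4.74 kb away, fell below the count filter. Other windows cover 25.3% of the Timmdc1 window. Over the 8 flanking windows of Cd80 the wild-type level ran from 0.107 to 1.32 CPM per kb. Of these, 0 were called by edgeR (0 gained and 1 lost at an unadjusted p under 0.05) and 0 by DESeq2.

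Icosl, which encodes the ligand of ICOS (chromosome 10, 78069368 to 78079525), held 7 and 8 counts in wild type and 14 and 20 in cKO, or 2.71 and 3.66 CPM against 4.28 and 5.84. The genotypes did not overlap, the log2 fold change was 0.67 ± 0.56, and the counting interval of the ratio, 0.825 to 3.07, takes in equal levels. Dnmt3l, a cofactor of DNA methylation 5.75 kb away, had a log2 fold change of −0.14 ± 0.30 (adjusted p = 0.868). Gatd3a, the nearest protein-coding window on the other side, fell below the count filter.

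The PD-1 ligands lie side by side on chromosome 19, with 22.8 kb between them, and both had few counts. Cd274, which encodes PD-L1 (29362107 to 29388095), held 8 and 7 counts in wild type and 6 and 11 in cKO and was the gene that fell below the filter. Its CPM were 3.1 and 3.21 against 1.83 and 3.21. By reference positions 35.0% of its window overlaps others, though the deposited window is shorter than that span. Pdcd1lg2, which encodes PD-L2 (29410919 to 29472927), held 23 and 21 counts in wild type and 30 and 22 in cKO, or 8.92 and 9.62 CPM against 9.17 and 6.43. The groups overlapped at both genes, and the Pdcd1lg2 log2 fold change was −0.25 ± 0.38. The nearest other protein-coding windows were Plgrkt, whose gene overlaps that of Cd274, and Ric1, 49.3 kb beyond Pdcd1lg2. They had log2 fold changes of −1.21 ± 0.66 (adjusted p = 0.319) and −0.49 ± 0.47 (adjusted p = 0.645), in that order. Of the 8 flanking windows of this pair, 0 were called by edgeR (1 gained and 0 lost at an unadjusted p under 0.05) and 0 by DESeq2.

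**Figure D4:**
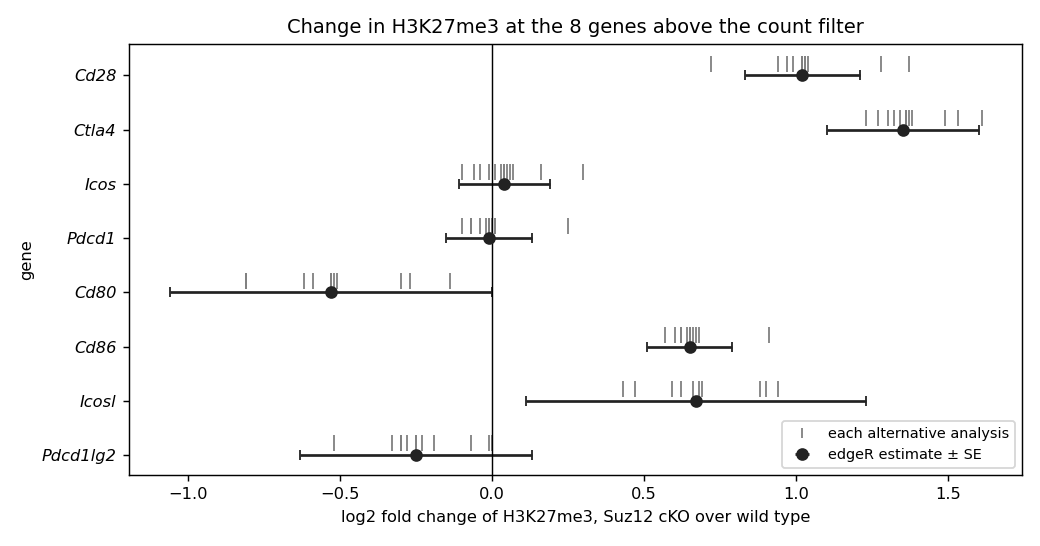
Log2 fold change of H3K27me3, Suz12 cKO over wild type, for the 8 genes above the count filter, with the edgeR estimate and its SE (black) and the estimate under each alternative analysis (grey ticks). Cd28 runs from 0.72 to 1.37, Ctla4 from 1.23 to 1.61 and Cd86 from 0.57 to 0.91 over the alternatives, while the ticks of Icos and Pdcd1 lie on both sides of 0.

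Genes with the most similar profile were sought by the distance of log2 CPM per kb over the 4 libraries. For Ctla4 they included Apcdd1, a Wnt inhibitor gene (distance 0.0859, from 0.94 to 2.46 CPM per kb), and Tns3, which encodes a focal adhesion protein. Those nearest to Cd28 were Lect2, Gm5477 and Polr2d-ps2, at larger distances of 0.279 to 0.365. Those nearest to Icos were Wif1, another Wnt inhibitor gene, T2 and Gpr161, at 0.0667 to 0.106. With 4 libraries, closeness in this measure is mostly likeness of level and of genotype difference.

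Other genes of the pathway, outside the 9, are given beside the 4.46% of all tested genes that gained and the 1.96% that lost. The lists, here and below, were also chosen with earlier results of these data known. Their counts are therefore a description and no test of the lists. Of 20 further B7, CD28 and checkpoint genes, 19 were tested, 1 gained and 0 were lost (1 lost at an unadjusted p under 0.05 with edgeR, and 0 by DESeq2), a share gained near that of all genes. Their median log2 fold change was 0.038, against −0.013 over all tested genes. The gained gene was Cd276, which encodes the B7 family protein B7-H3, with 20.9 and 28.8 CPM in wild type and 44.3 and 39.4 in cKO (0.76 ± 0.20, edgeR adjusted p = 0.00605). Cd276 was not called without wild-type library 1 (adjusted p = 0.213), without cKO library 1 (0.119) or by DESeq2 (0.153). The most marked were Ildr2, which encodes a B7-like protein (7.42 CPM per kb in wild type, 7.76 in cKO), and Btnl2, a butyrophilin-like gene (2.83 and 2.44), and neither was called. Vsir, which encodes VISTA, lies wholly within another window and had 0 counts in these libraries.

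Of 13 costimulatory genes of the TNF family, 7 were tested and 0 were called by edgeR (1 gained and 0 lost at an unadjusted p under 0.05) or by DESeq2, with a median log2 fold change of 0.06. Cd70, the ligand of CD27, had a wild-type level of 8.32 CPM per kb and a cKO level of 10.5 (log2 fold change 0.33 ± 0.13, adjusted p = 0.113). Cd40, an activating receptor of antigen-presenting cells, had 3.63 and 3.69 (0.01 ± 0.13, adjusted p = 0.974). The 6 genes below the filter include Cd27 and Tnfrsf18, whose windows lie wholly within others.

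Of 24 genes of signalling below CD28, 22 were tested, 2 gained, against 4.46% of all tested genes, and 0 were lost (2 lost at an unadjusted p under 0.05, and 0 by DESeq2), with a median log2 fold change of −0.14. Il2, which encodes the T cell growth factor that CD28 signals induce, rose from 8.92 and 7.78 CPM in wild type to 21.7 and 19.9 in cKO (1.30 ± 0.30, edgeR adjusted p = 0.00111), and was not called by DESeq2 (adjusted p = 0.0595). Fyn, which encodes a Src family kinase, rose from 51.2 and 49.5 CPM to 83.5 and 83.8 (0.73 ± 0.15, adjusted p = 6.4e-05), and other windows cover 7.59% of its own. The groups did not overlap at either gene. The most marked were Nfatc2, an NFAT transcription factor gene (3.22 and 2.97 CPM per kb, −0.12 ± 0.09, adjusted p = 0.539), and Zap70, a kinase gene of the antigen receptor (2.42 and 2.58, 0.09 ± 0.14, adjusted p = 0.792).

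Of 12 antigen presentation genes, 6 were tested and 1 gained (4.46% of all tested genes gained), Nlrc5, a transactivator of MHC class I genes (33.3 and 34.8 CPM in wild type, 49.5 and 49.4 in cKO, 0.54 ± 0.18, edgeR adjusted p = 0.0442). None was lost (0 at an unadjusted p under 0.05, and 0 by DESeq2). Nlrc5 lost its call whichever library was left out: wild-type library 1 (adjusted p = 0.192), wild-type library 2 (0.119), the first cKO library (0.209) or the second (0.27). H2-Ab1, which encodes an MHC class II chain, had 1.53 and 1.74 CPM per kb (0.17 ± 0.25, adjusted p = 0.781). The list's median log2 fold change was 0.21.

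**Figure D5:**
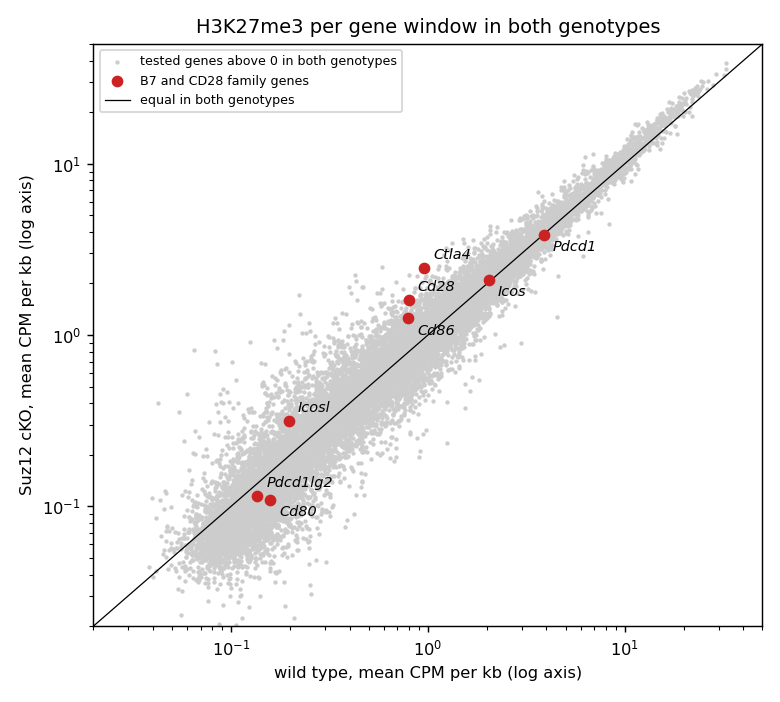
Mean CPM per kb in wild type (x, log axis) and Suz12 cKO (y, log axis) for tested genes above 0 in both genotypes (grey) and the 8 tested B7 and CD28 family genes (red), with the line of equal values. Ctla4, Cd28 and Cd86 lie above the line at middle wild-type levels of the mark, while Icos and Pdcd1 lie on it at higher wild-type levels. In cKO Ctla4 (2.47) stands above Icos (2.1).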

How the data were processed

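The authors deposited raw counts of H3K27me3 Cut&Tag reads in 1 table, with a row per Entrez gene and a column per library. Reads were counted with featureCounts on mm10, per the submitters' processing notes. The aligner, duplicate handling and counting settings were not given in the sources used here. Window lengths in bp, as the authors deposited them, equal the GRCm38.p6 gene span with 3 kb on each side for 11524 genes, among them 4 of the 9 described. They differ for 5, for Ctla4 by 2 bp. Symbols and positions came from that reference, which matched 25204 IDs (93.0%). Overlaps between windows were taken from reference positions.

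Counts were scaled with TMM factors and compared over all genes with edgeR 4.0.16 in R 4.3.3 (filterByExpr, glmQLFit, glmQLFTest, genotype as the only term, Benjamini-Hochberg adjustment, calls below 0.05). The filter removed 10343 genes. SE is the log2 fold change divided by the square root of F. Housekeeping scaling used the summed counts of 35 genes (333 to 447 per library). Tested on simulated data for this comparison (16095 genes run), the fit recovered 53% of genes changed 2-fold and 85% of those changed 4-fold. There were 5 false calls among 143. The simulated counts used means and dispersions from this same fit, with changes in random direction. The false calls are therefore no error rate for the calls in the real data. Replicate libraries differed by more than sampling noise (chi-square per degree of freedom 2.04 in wild type and 1.8 in cKO, 3.79 to 4.3 between genotypes).

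The members and gene lists were chosen with earlier results of these data known. The text names all 9 members, the called genes of each list or else its 2 most marked, the called and nearest flanking windows (4 protein-coding windows per side), and the 3 genes nearest in profile to each receptor of the cluster, of which 1 is not reported here. Alternatives were other scalings and filters, DESeq2 1.42.0, thinning to 2142175 counts, leaving out each library and a replicate block.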

Additional observations from a re-analysis of the deposited data

How the results depend on the processing

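Over 13 alternatives the log2 fold change ran from 0.72 to 1.37 for Cd28, from 1.23 to 1.61 for Ctla4 and from 0.57 to 0.91 for Cd86, as a description of genes chosen with this contrast known. The sign of Icos turned with library totals (−0.01), upper-quartile factors (−0.04), thinned counts (−0.10) and without wild-type library 1 (−0.06). The Icos estimate reached 0.16 when a library was left out and 0.30 with housekeeping scaling. The sign of Pdcd1 turned with housekeeping scaling (0.25), no count filter (0.01), and without wild-type library 2 (0.00) or cKO library 1 (0.01). Its lowest estimate with a library left out was −0.02. Of all genes, the 747 gained became 494 with upper-quartile factors, 325 with DESeq2 and 350 to 738 when a library was left out. The 329 lost became 519 with upper-quartile factors, 47 with housekeeping scaling, 52 with DESeq2, 195 with thinned counts and 76 to 207 when a library was left out. The gained checkpoint gene became 0 with DESeq2 and 0 to 1 when a library was left out, and the 2 gained signalling genes became 1 with DESeq2. The gained antigen presentation gene became 0 with library totals, upper-quartile factors, DESeq2, thinned counts and each library left out. The cause was not tested, except that leaving out a library or thinning leaves fewer reads. With a replicate block 733 genes gained and 306 were lost. The deviations of same-numbered libraries correlated at 0.00844. With 2 libraries per genotype this value cannot show whether the libraries were paired. Per kb of unshared window Cd274 stood at 0.182 CPM in wild type against 0.118, which moved it above Cd80 and Pdcd1lg2. With a lone library in 1 group, that library is assumed to vary like the other group. Few counts at Cd80, Icosl, Cd274 and Pdcd1lg2 limit what can be detected there.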
